A study of Homo sapiens with 2 samples.

Results

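Keratins and lung epithelial lineage genes were examined in RNA that co-precipitated with LRPPRC, an RNA-binding protein of mitochondria and cytoplasm. The rule names 10 genes, namely the simple-epithelium keratins KRT7, KRT8, KRT18 and KRT19, the basal keratins KRT5 and KRT14, the epithelial adhesion gene EPCAM, and the alveolar lineage genes NKX2-1, SFTPC and SFTPB. Of these, 8 had a row and are described here, out of 16770 named genes in all, and KRT5 and KRT14 were not analysed here. RNA was captured with an anti-LRPPRC antibody from lysates of wild-type A549 cells, a lung adenocarcinoma cell line labelled as epithelial, and 2 RIP-seq libraries of this 1 condition were used. No treatment is given in the sample labels, and the line is a tumor line in culture, so no other lung cell type and no normal epithelium was sampled. The series description calls the replicates technical and the paper calls them biological, and their spread may therefore be purely technical. The unit is FPKM, a fragment count scaled by transcript length and by library size, so levels of different genes can be set side by side per length. The value describes the precipitate alone. Abundance in the cell and capture with LRPPRC cannot be told apart from it, because neither input nor IgG libraries entered the comparison, and fewer cells with a transcript cannot be told apart from less RNA per cell. With 1 condition no test between conditions was possible, and genes are not replicates, so the levels below are a description of these libraries.

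Keratins are the intermediate filament proteins of epithelial cells, and each filament is built from pairs of a type I with a type II keratin. KRT8 (type II) and KRT18 (type I) form the basic pair of simple epithelia such as the alveolar and glandular lining, where KRT7 (type II) and KRT19 (type I) are often made beside them. KRT5 and KRT14 form the pair of basal cells in stratified and airway epithelium. NKX2-1 is the transcription factor that specifies lung epithelium and drives surfactant genes, among them SFTPC and SFTPB, which encode hydrophobic surfactant proteins of alveolar type II cells.

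Keratins of a type share parts of their sequence, to a degree that differs between pairs of genes, and stretches that are identical elsewhere in the genome bear on how a read is assigned to a gene. The coding stretch at the end of the central rod, where the helix ends in a motif that all keratins share, is shown for the type I members KRT18 and KRT19, to set out where bases tell them apart. Each stretch below has 63 bases of the coding strand, 5′ to 3′, from the canonical transcript of GENCODE 44 on GRCh38. Capitals mark bases of KRT19 that differ from KRT18.
KRT18: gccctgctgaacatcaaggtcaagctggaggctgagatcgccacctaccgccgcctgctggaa
KRT19: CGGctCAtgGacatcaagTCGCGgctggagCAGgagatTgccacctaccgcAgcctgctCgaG
KRT19 differed from KRT18 at 18 of the 63 bases. Over the aligned coding sequence, KRT8 and KRT7 were 72.7% identical, KRT18 and KRT19 61.7%, and the hair keratins KRT81 and KRT86 93.0%.

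Processed copies of keratin mRNAs elsewhere in the genome are a further source of shared sequence. The annotation lists 68 KRT18 pseudogenes, 51 KRT8 pseudogenes and 5 KRT19 pseudogenes, and none of them had a row here. For KRT18, 36 places on 17 chromosomes matched its transcript with at least 90% identity over at least 50% of its length, and for KRT8 there were 16 such places on 10 chromosomes. KRT19 had 1, and KRT7, EPCAM, NKX2-1, SFTPC and SFTPB had 0. The same rod-end stretch is shown for 2 copies of KRT18, to set against the parent gene above. Capitals mark bases that differ from KRT18.
KRT18P11, chrX:92460752-92460814, plus strand: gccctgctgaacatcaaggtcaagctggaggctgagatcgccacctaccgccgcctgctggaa
KRT18P17, chr3:12787527-12787589, minus strand: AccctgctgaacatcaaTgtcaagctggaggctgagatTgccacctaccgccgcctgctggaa
KRT18P11 had 0 differences from KRT18 in this stretch, and its whole match was 95.2% identical. Of the windows of 100 bases along the KRT8 transcript, 8.55% had an exact copy elsewhere in the genome, against 0% for KRT18. For windows of 50 bases the share was 46.9% for KRT8 and 39.0% for KRT18, against 0.825% for KRT7 and 1.79% for KRT19. Read length is not stated, and how shared reads were divided was not tested, so the levels of KRT8 and KRT18 are less certain than the spread between libraries shows.

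The simple-epithelium keratins were far above the other members. KRT8 had 339 FPKM in replicate 1 and 335 FPKM in replicate 2, a mean of 337 ± 3.11 (SD, n = 2), which ranked 44 of 16770 named genes. KRT18, its type I partner, had 50.6 and 51.7 FPKM, a mean of 51.1 ± 0.755 (SD, n = 2), and ranked 695. The library values of these partners did not overlap, and KRT8 was 6.71 times KRT18 in replicate 1 and 6.48 times in replicate 2.

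KRT7, the second type II keratin of simple epithelia, had 31.5 FPKM in replicate 1 and 29.6 in replicate 2, a mean of 30.5 ± 1.32 (SD, n = 2), at rank 1390. It was the only member whose libraries fell on either side of FPKM 30, the threshold of the study's list of bound transcripts. KRT19, a type I keratin that is also found in ducts and regenerating epithelium, had 12.6 and 11.6 FPKM, a mean of 12.1 ± 0.728 (SD, n = 2), and stood below the threshold in both libraries, at rank 3460. The order KRT8, KRT18, KRT7, KRT19 was the same in both libraries, and no neighbours in it overlapped. KRT18 was 1.68 times KRT7 and KRT7 was 2.53 times KRT19 by mean.

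**Figure D1:**
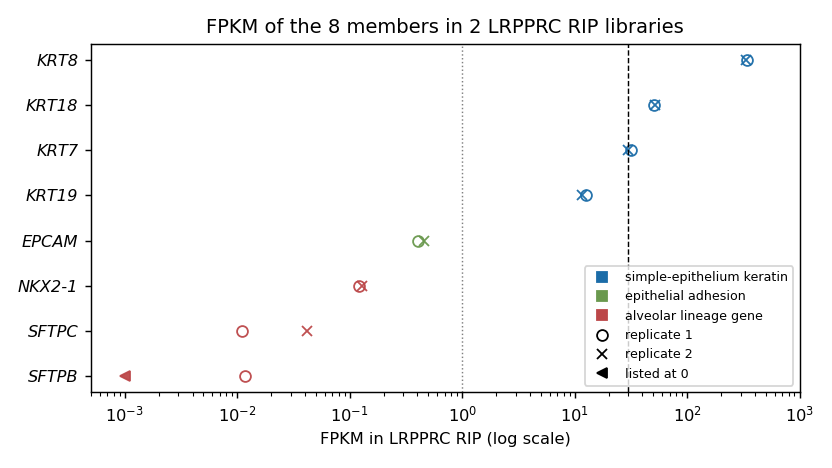
FPKM (x axis, log scale) of the 8 members with a row, from highest to lowest mean, in LRPPRC RIP replicate 1 (circles) and replicate 2 (crosses). The dashed line is FPKM 30 and the dotted line FPKM 1. The 4 keratins lie between 11.6 and 339 FPKM, EPCAM, NKX2-1, SFTPC and SFTPB lie below 1, and the triangle marks SFTPB, listed at 0 in replicate 2.

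By mean FPKM, 3 of the 8 members (KRT8, KRT18 and KRT7) were above 30, against 8.46% of all named genes. All 4 simple keratins and none of the other 4 members reached FPKM 1 in both libraries, against 62.3% of all named genes. The median of the simple keratins was 40.8 FPKM, beside 2.48 FPKM over all named genes. Among the 10441 genes that reached FPKM 1 in each library, KRT8 stood at percentile 99.6, KRT18 at 93.3, KRT7 at 86.7 and KRT19 at 66.9.

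EPCAM, a homophilic adhesion molecule of the epithelial surface, had 0.402 FPKM in replicate 1 and 0.459 in replicate 2, a mean of 0.430 ± 0.0402 (SD, n = 2). KRT19, the next member above it, was 31.3 times EPCAM in replicate 1 and 25.2 times in replicate 2. CLDN7, a claudin that associates with EPCAM, had 0.153 and 0.228 FPKM. In the precipitate EPCAM stood at percentile 28.3 of all named genes and KRT8 at percentile 99.7.

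NKX2-1 had 0.120 and 0.129 FPKM, a mean of 0.124 ± 0.00670 (SD, n = 2), below EPCAM in both libraries, with EPCAM 3.46 times as high by mean. SFTPC had 0.0110 FPKM in replicate 1 and 0.0418 in replicate 2. SFTPB had 0.0118 FPKM in replicate 1 and was listed at 0 in replicate 2. The libraries of SFTPC and SFTPB overlapped, so these surfactant genes could not be ordered, whereas NKX2-1 was above each of them in both libraries. Sequencing depth is unknown, and at such values it cannot be said whether a transcript was absent from the precipitate. On the log2(FPKM + 1) scale the median of the simple keratins was 5.30 above that of the alveolar lineage genes, 5.34 in replicate 1 alone and 5.27 in replicate 2 alone. The pseudocount holds this difference down because the alveolar genes are near 0, and it was 8.29 with a pseudocount of 0.1.

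For the 4 simple keratins the libraries differed little in absolute terms. The log2 ratio of replicate 1 to replicate 2 was 0.02 for KRT8, -0.03 for KRT18, 0.09 for KRT7 and 0.12 for KRT19. Among genes whose mean was within 1.5 times that of KRT19, the median absolute log2 ratio was 0.05, and 82.0% had a smaller ratio than KRT19. For KRT7 the corresponding share was 77.8%, for KRT18 40.2% and for KRT8 28.8%. The log2 ratio was -0.19 for EPCAM and -1.93 for SFTPC, both larger in size than that of any of the 4 keratins, and -0.11 for NKX2-1, which was smaller in size than that of KRT19. The ratio of NKX2-1 was smaller than that of most genes of like mean, of which 13.8% had a smaller one. For SFTPC 87.3% did, and for EPCAM 40.1%, a share below those of KRT7 and KRT19 and close to that of KRT18.

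**Figure D2:**
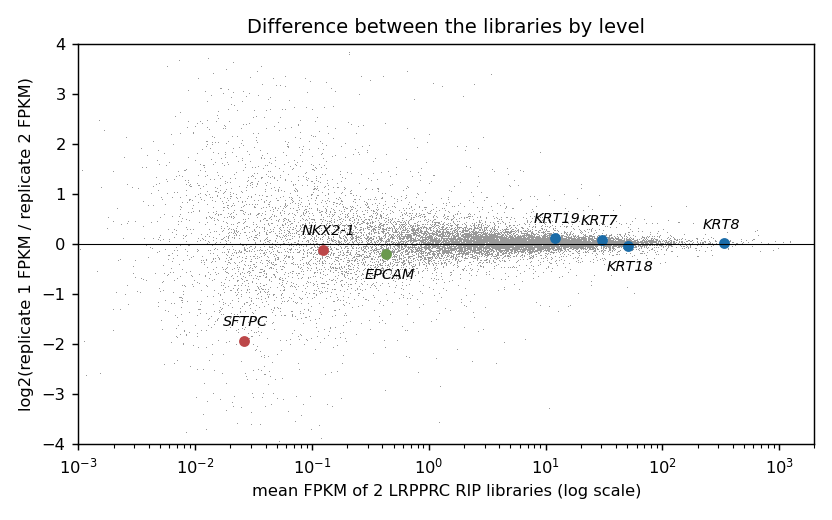
Log2 ratio of replicate 1 to replicate 2 (y axis) against the mean FPKM of both LRPPRC RIP libraries (x axis, log scale) for named genes above 0 in both libraries (gray points). Of the members (colored points), the 4 keratins lie between -0.03 and 0.12 and SFTPC, at -1.93, lies in the wide scatter of low values; SFTPB, at 0 in replicate 2, has no ratio.

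Type II keratin transcripts outweighed type I transcripts in the precipitate. KRT7 and KRT8 summed to 371 FPKM in replicate 1 and 364 in replicate 2, while KRT18 and KRT19 summed to 63.2 in each library. The ratio of the sums was 5.82 by mean, 5.87 in replicate 1 and 5.77 in replicate 2. It rested on KRT8, since KRT7 alone was 0.483 times the sum of KRT18 and KRT19. That comparison without KRT8 was chosen after its values were seen. Over all keratin rows the type II to type I ratio was 6.34.

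Of 28 keratins with a row, 14 of each type, 6 reached FPKM 1 in both libraries, against 62.3% of all named genes. These 6 held nearly all of the keratin signal. KRT8 alone made up 69.6% of the summed keratin FPKM by mean, and the 4 simple keratins together made up 88.9%. All keratins summed to 489 FPKM in replicate 1 and 480.0 in replicate 2, or 0.249% and 0.246% of the summed FPKM of each library.

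The keratins above FPKM 1 that the rule did not name were KRT81 and KRT80. KRT81, a type II keratin of the hair cortex, had 43.4 FPKM in replicate 1 and 41.3 in replicate 2, a mean of 42.3 ± 1.52 (SD, n = 2). It lay between KRT18 and KRT7 in both libraries, with no overlap with either, and KRT18 was 1.21 times KRT81. Its near-identical relatives were low, with 0.294 and 0.384 FPKM for KRT86 and 0.288 and 0.231 FPKM for KRT83. Windows of 100 bases with an exact copy elsewhere made up 19.5% of the KRT81 transcript and 16.7% of the KRT86 transcript. For the shorter windows described above the share was 35.2% for KRT81, 29.5% for KRT86 and 11.8% for KRT83, beside 39.0% for KRT18. How shared reads were divided was not tested here either. The levels of KRT81, KRT86 and KRT83 are therefore also less certain than the spread between libraries shows. In the annotation the KRT81 gene lies wholly inside the record of KRT86, on the opposite strand, without shared exon bases. Of 26 hair and inner root sheath keratins, 9 had a row, with a list median of 0.0779. KRT81 was the only one to reach FPKM 1, against 62.3% of all named genes. KRT80, a type II keratin of stratified epithelium, had 8.21 and 7.10 FPKM, below KRT19 in both libraries.

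The other stratified-epithelium keratins were low or near 0. KRT15, a type I keratin of basal cells, had 0.883 and 1.09 FPKM, and KRT17, a type I keratin induced in basal and injured epithelium, had 0.657 and 0.962. KRT10 had 0.576 and 0.521 FPKM, KRT4 had 0.191 and 0.0856, and KRT6A had 0.153 and 0.0552. Of 20 genes listed as other stratified-epithelium keratins, 13 had a row. Of these 13, 1 (KRT80) reached FPKM 1 in both libraries and 0 were above 30, against 62.3% and 8.46% of all named genes. Their median was 0.0457 FPKM by mean, and on the log2(FPKM + 1) scale the median of the 4 simple keratins was 5.28 above it. With KRT20 and KRT23 counted among the simple keratins the difference was 4.28, and it was 8.09 with a pseudocount of 0.1, which sets much of its size because most stratified keratins are near 0. Of the other simple keratins, KRT20 of intestinal epithelium had 0.247 and 0.248 FPKM and KRT23 was at or below 0.0114.

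**Figure D3:**
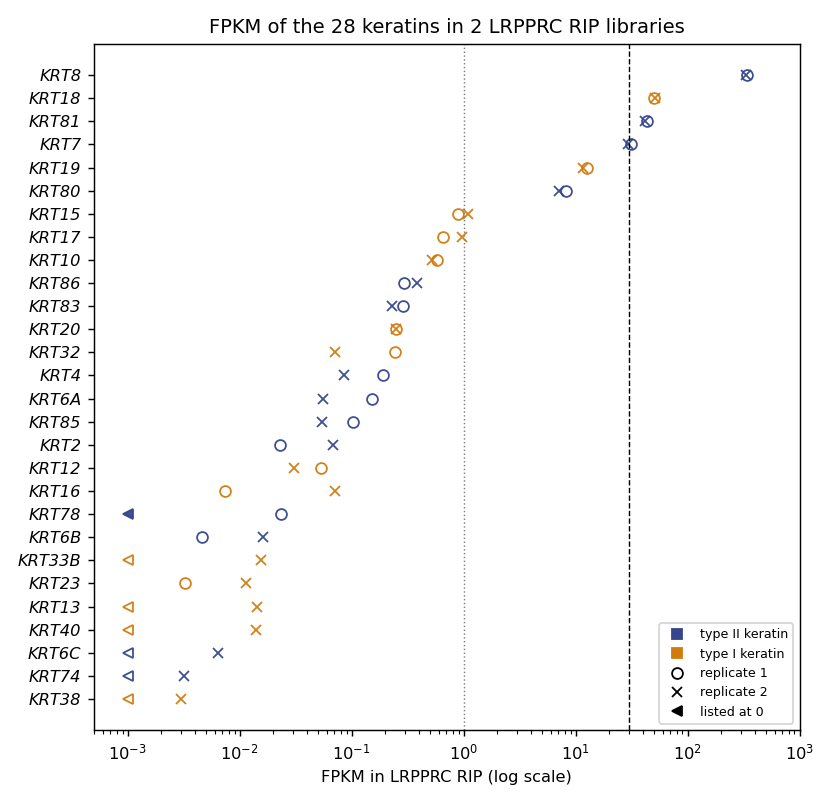
FPKM (x axis, log scale) of the 28 keratins with a row, from highest to lowest mean, with type II in blue and type I in orange, circles for LRPPRC RIP replicate 1 and crosses for replicate 2. The dashed line is FPKM 30 and the dotted line FPKM 1; 6 keratins, led by KRT8, lie above FPKM 1 in both libraries, and triangles mark the 7 keratins that are listed at 0 in 1 of the libraries.

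The simple keratin transcripts share features that the rule did not use. Their canonical transcripts had between 1390 and 1784 bases, and all 4 lie at or below percentile 20.2 of length among 15531 named genes with a protein-coding model, whose median was 3251 bases. The 3′ UTR had 237 bases in KRT8, 161 in KRT7, 126 in KRT19 and 64 in KRT18, beside a median of 1222. The GC content was between 58.2% and 62.0%, against a median of 48.9%. These features were not particular to the simple keratins. SFTPC had 839 bases, a 3′ UTR of 232 bases and 60.8% GC, and the low keratin KRT83 had 1875, 330 and 61.5%. NKX2-1 had 60.0% GC, whereas EPCAM had 44.3% GC and SFTPB had 3550 bases. KRT8 lies on chromosome 12 from 52897187 to 52949954 on the minus strand and KRT18 from 52948871 to 52952906 on the plus strand, so these gene records overlap by 1084 bases. Within the canonical transcript of KRT18, 375 of 1413 bases fall in an exon of some KRT8 transcript on the opposite strand. The library kit keeps the strand, but no source used here states whether counting did, and the effect on KRT18 was not tested. KRT7 is also on chromosome 12, from 52232520 to 52252186, and KRT19 is on chromosome 17 from 41523617 to 41528308. EPCAM lies on chromosome 2 from 47345158 to 47387601, SFTPB on chromosome 2 from 85657314 to 85668741, and NKX2-1 on chromosome 14 from 36516392 to 36521149. All positions are those of GENCODE 44 on GRCh38.

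Levels of other genes lay beside those of the keratins, by distance of log2(FPKM + 1) over the 2 libraries. The genes nearest to KRT8 were PKM, a glycolytic pyruvate kinase, at 342 FPKM by mean, and VIM, the intermediate filament protein vimentin of mesenchymal and cultured cells, at 324. KRT8 was 1.04 times VIM in replicate 1 and 1.03 times in replicate 2, and VIM followed KRT8 directly at rank 45. The nearest to KRT18 were RNMT and LTA4H, to KRT7 ACSL3 and NEDD9, and to KRT19 DUSP16 and KIF24. Over 2 libraries of 1 condition such likeness is one of level only.

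Genes whose products anchor keratin filaments were all lower than KRT8, as were nearly all named genes, since KRT8 ranked 44 of 16770. Some of them were above KRT7 or KRT19. Of 17 desmosome and plakin genes, 15 had a row and 9 reached FPKM 1 in both libraries, a share near the 62.3% of all named genes, and 2 were above 30, beside 8.46% of all named genes, with a median of 1.22 FPKM. PKP4, a plakophilin-related armadillo protein, had 47.5 and 48.3 FPKM, and DST, the plakin dystonin, had 40.5 and 41.8. DSP, which encodes desmoplakin and ties keratins to desmosomes, had 22.0 and 22.6 FPKM, and PLEC, the plakin plectin, had 21.6 and 21.2. Among 13 other intermediate filament and lamin genes VIM led, followed by LMNB2 with 38.1 and 38.2 FPKM, LMNB1 with 30.2 and 30.1, and INA, a neuronal filament gene, with 29.8 and 29.6. Of these 13, 7 reached FPKM 1 in both libraries and 3 were above 30, beside 62.3% and 8.46% of all named genes. Their median was 3.16.

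Epithelial adhesion genes ranged widely around EPCAM. Of 27 genes, all with a row, 17 reached FPKM 1 in both libraries, a share near the 62.3% of all named genes, and 4 were above 30, beside 8.46% of all named genes, with a median of 1.62 FPKM in replicate 1 and 1.58 in replicate 2. CTNNB1, which encodes beta-catenin, had 98.3 and 99.1 FPKM, TJP1, which encodes the tight junction protein ZO-1, had 83.6 and 80.6, CD24 had 71.1 and 66.7, and CTNNA1, alpha-catenin, had 59.3 and 57.1. CDH1, which encodes the E-cadherin of epithelial junctions, had 1.35 and 1.32 FPKM. ESRP1, an epithelial splicing regulator, had 1.13 and 1.07, and GRHL2, an epithelial transcription factor, had 0.723 and 0.664. CDH1, ESRP1 and GRHL2 were picked from the list after their values were seen, and members of the same list lay on both sides of the median of all named genes.

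Markers of lung cell types were uneven beside NKX2-1, SFTPC and SFTPB. Of 15 alveolar type II markers, which include SFTPC and SFTPB, 11 had a row, with a median of 0.600 FPKM. Of these, 4 reached FPKM 1 in both libraries and 0 were above 30, against 62.3% and 8.46% of all named genes. The highest were ETV5, a transcription factor, with 15.8 and 16.0 FPKM, ABCA3, the lipid transporter of lamellar bodies, with 9.46 and 9.12, LPCAT1, an enzyme of surfactant lipid synthesis, with 7.92 and 7.79, and MUC1 with 2.55 and 1.76. NAPSA, the aspartic protease that processes SFTPB, had 0.0316 and 0.0331 FPKM. Among lung lineage transcription factors NKX2-1 was low, at position 20 of the 21 with a row, above FOXA3 by mean. Of 22 such genes, 21 had a row, and 14 of these reached FPKM 1 in both libraries, a share near the 62.3% of all named genes. The list median was 2.97 FPKM, and 0 were above 30, beside 8.46% of all named genes. FOXP4 had 22.5 and 22.8 FPKM, SOX9 of the distal lung progenitors 11.9 and 11.2, FOXP1 10.1 and 9.48, and CEBPB 9.19 and 9.98.

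Of 10 alveolar type I markers, 7 had a row, with a median of 1.41 FPKM. Of these, 4 reached FPKM 1 in both libraries and 1 was above 30, beside 62.3% and 8.46% of all named genes. They were led by CAV1, caveolin-1, which many cell types make, with 118 and 113 FPKM, followed by CAV2 with 23.3 and 26.9, EMP2 with 13.0 and 13.8, and RTKN2 with 1.52 and 1.29. Of 10 airway basal cell markers, which include KRT5 and KRT14, 6 had a row and 3 reached FPKM 1 in both libraries, with a median of 1.74. The highest were the integrin genes ITGA6, with 10.4 and 10.2 FPKM, and ITGB4, with 2.47 and 2.51, and between them TP63, the basal cell transcription factor, with 4.53 and 4.57. Of 10 airway secretory markers, 5 had a row and 2 reached FPKM 1 in both libraries, the gel-forming mucins MUC5AC, with 7.69 and 7.73, and MUC5B, with 5.82 and 5.79. Of 8 ciliated cell markers, 7 had a row and 0 reached FPKM 1 in both libraries, with DNAI1, an axonemal dynein gene, at 0.134 and 0.179. The counts at FPKM 1 of the basal, secretory and ciliated lists stand beside the same 62.3% of all named genes. Outside CAV1, no marker on these lung cell type lists was above 30, beside 8.46% of all named genes.

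Of the markers of cell types outside the epithelium, 1 of 7 fibroblast, 0 of 4 immune and 0 of 5 endothelial genes with a row reached FPKM 1 in both libraries, against 62.3% of all named genes. The fibroblast markers, all 7 with a row, summed to 2.38 FPKM in replicate 1 and 2.24 in replicate 2, led by the collagen gene COL1A2 with 1.40 and 1.31, close to CDH1. The immune markers, 4 of 6 with a row, summed to 0.973 and 0.838, led by CD68 with 0.707 and 0.480. The endothelial markers, all 5 with a row, summed to 0.553 and 0.928, led by CDH5 with 0.299 and 0.674. By mean, COL1A2, COL1A1, CD68 and CDH5 each exceeded EPCAM, although CDH5 was below EPCAM, at 0.402 FPKM, in replicate 1. Beside these sums, KRT18 alone had 50.6 FPKM in replicate 1 and 51.7 in replicate 2.

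**Figure D4:**
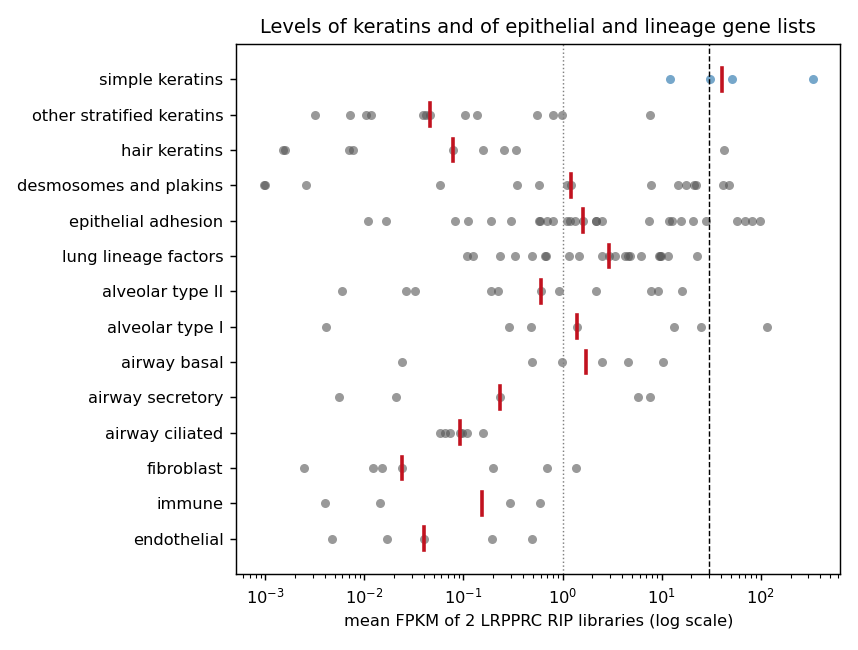
Mean FPKM of both LRPPRC RIP libraries (x axis, log scale) of the genes with a row in 14 lists (y axis), with the simple keratins in blue, other genes in gray and the median of each list as a red bar. The dashed line is FPKM 30 and the dotted line FPKM 1. The simple keratins have a median of 40.8 and the medians of the other lists shown lie between 0.0239 and 2.97; the other intermediate filaments and lamins, with a median of 3.16, and the other simple keratins are not drawn.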

How the data were processed

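Anti-LRPPRC RIP-seq of A549 cells gave 2 libraries of 1 condition. The deposited values are FPKM, given by the authors per gene and library without pooling. The submitters' processing notes and the paper's methods name cutadapt 1.18 for trimming, HISAT2 2.1.0 for alignment (GRCh38), SAMtools, and StringTie 1.3.3b for quantification with an Ensembl annotation. The table holds 21262 rows, of which 4460 are genes added by assembly and 16802 are named. Where a name was repeated, the row with the higher mean was kept, which left 16770 genes. Summed FPKM was 196627 (replicate 1) and 194839 (replicate 2). The depth is unknown, since among 5405 low genes at most 1.41% shared a log2 ratio within an interval of 0.02 and no whole reads were recovered.

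Means, SDs, ranks and percentiles were computed, with a pseudocount of 1 on the log2(FPKM + 1) scale. Levels were counted above FPKM 30 and at FPKM of at least 1. List medians cover only genes with a row, so listed genes without one do not enter them. Only 1 named gene was at 0 in both libraries. The members and gene lists were chosen with earlier results of these data known. Named were the members, up to 4 of the highest genes of each list, keratins with a mean of at least 1, and the 2 genes nearest to each member above FPKM 1. Fewer than 4 were named for the hair keratins and for the secretory, ciliated, fibroblast, immune and endothelial markers. Other genes named, such as CLDN7, CDH1, ESRP1, GRHL2, NAPSA and the low keratins, were chosen after their values were seen. Gene models and sequences came from GENCODE 44 on GRCh38, a later annotation than the authors'. Transcripts were matched to the genome with blastn 2.17.0. The planned contrast of simple and basal keratins had no value, because KRT5 and KRT14 were not analysed, and other stratified-epithelium keratins took their place. The percentile computation was tested on simulated data. Python 3.11.15, numpy 2.4.6, pandas 2.3.3, Biopython 1.88 and matplotlib 3.10.9 were used.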

Additional observations from a re-analysis of the deposited data

How the results depend on the processing

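The members above FPKM 30 numbered 3 by mean, 2 at FPKM 50 or with both libraries above 30, and 2 to 3 with a single library, because KRT7 stands at the threshold. The difference of simple and stratified keratins on the log2 scale was 5.28, and 5.23 to 5.28 with a single library. It was 8.09 and 9.47 with pseudocounts of 0.1 and 0.01, 5.23 with list means, 7.36 scaled to TPM, 4.28 with all simple keratins of the lists and 5.77 with FPKM multiplied by transcript length. That between simple keratins and alveolar lineage genes was 5.30, and 5.27 to 5.34 with a single library. It was 8.29 and 10.1 with those pseudocounts, 5.63 with list means and 7.48 scaled to TPM. A smaller pseudocount, or a scale that makes the values larger, raises the difference by construction. The type II to type I ratio was 5.82, 5.77 to 5.87 with a single library, 7.31 with FPKM multiplied by transcript length, 6.34 over all keratin rows, 6.59 for KRT8 over KRT18 alone and 0.483 without KRT8; the last 2, and the use of stratified keratins, were chosen after seeing the data. The keratin share was 0.248%, 0.246% to 0.249% with a single library and 0.253% of named rows only. Both log2 differences stayed positive under these alternatives, whereas the type II to type I ratio fell below 1 without KRT8. With other pseudocounts, TPM scaling, list means or a single library, the sign of the log2 differences could not change. KRT19, the lowest of the simple keratin members, exceeded every stratified keratin and alveolar lineage gene compared in each library. No paired analysis was possible because only 1 group was sampled. Unknown depth limits the values of EPCAM, NKX2-1, SFTPC and SFTPB.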
